A study of Bos taurus with 10 samples.

Results

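The genes described here encode the membrane transporters of 7 solute carrier families that carry amino acids and their relatives: SLC1, SLC3, SLC6, SLC7, SLC36, SLC38 and SLC43. They were taken from the table of normalized read counts as every row whose symbol is one of these family names followed by A and a number, with a mean of at least 1 over the 10 embryos. The rule gave 57 of the 20112 genes in the table, and all 57 matching rows passed the minimum. The rule rests on symbols and a mean over both groups, not on the difference between them. The embryos were single bovine early blastocysts made by in vitro fertilization, 5 WT and 5 *SOX2* KO. WT embryos received at the zygote stage mRNA of BE3, a cytosine base editor, without a guide, so the editor mRNA is shared by all 10 embryos. *SOX2* KO embryos received BE3 mRNA together with a mixture of *SOX2* sgRNAs meant to place premature stop codons in the gene, which encodes a transcription factor of pluripotent cells. The labels give the age as day 7.0 after fertilization, while the methods state D7.5. Injected embryos can be mosaic, and each library holds the inner cell mass and the trophectoderm of 1 blastocyst together. A difference between groups can therefore come from fewer cells of a type or from less RNA per cell, which cannot be told apart here.

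Amino acids reach the preimplantation embryo through carriers with overlapping substrates. SLC1 proteins take up acidic or small neutral amino acids. SLC6 proteins couple sodium and chloride to the uptake of amino acids, taurine, creatine, GABA or monoamines. Most SLC7 proteins are light chains that reach the membrane only when joined to an SLC3 heavy chain, whereas the cationic amino acid transporters of that family work alone. SLC36 and SLC38 proteins carry small neutral amino acids and glutamine at the plasma membrane and at lysosomes, and SLC43 holds carriers of large neutral amino acids. Blastocysts use these carriers for growth, osmotic balance and the control of mTORC1, the kinase complex that senses amino acids.

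The targeted gene *SOX2* had normalized read counts of 56.5, 93.4, 83.5, 73.0 and 84.4 for nc1 to nc5 and 39.0, 26.4, 64.0, 82.1 and 71.5 for ko1 to ko5 (log2 fold change -0.55, standard error 0.27, limma adjusted p = 0.167), where a stop codon made by base editing need not lower the RNA. The groups overlapped, so this RNA level does not check the labels. The paper reports genotyping each sequenced blastocyst from part of its cDNA library. Reads on genes ranged from 2223670 to 5134855 per WT library and from 2578284 to 4337342 per *SOX2* KO library (exact permutation test, two-sided, p = 0.349). In the same order, the 18S ribosomal RNA gene *RN18S1* took 26.4% to 37.0% and 32.5% to 44.95% of them (exact permutation p = 0.0635), and 15919 to 18092 and 17987 to 19813 genes had at least 1 read (exact permutation p = 0.0159). Smart-seq2 amplifies cDNA without molecular identifiers, so reads can be copies of the same molecule. Intervals cover the counting error of reads only, not that of molecules, and can be too narrow. Up to 3 reads in an embryo are taken as the floor of detection. The blastocyst identity was checked on fixed marker lists, of which 12 epiblast, 10 primitive endoderm, 14 trophectoderm and 12 cumulus and granulosa genes were tested. The summed normalized read counts of the epiblast list were 3153 to 3717 for WT and 1594 to 2054 in *SOX2* KO, with 6 genes called lower (5 by DESeq2) and 0 higher, where 1.16% of all genes tested were called lower. *POU5F1*, which encodes OCT4, and *SALL4* were also lower past the adjusted p alone, without overlap (log2 fold changes -0.75 and -0.63, standard errors 0.16 and 0.18, limma adjusted p = 0.00631 and 0.0257). The primitive endoderm list had 1631 to 2044 and 1476 to 1648, with 3 genes called lower (2 by DESeq2), 0 higher and 7 not called. The largest part of its sum came from *GATA6*, which was not called. The trophectoderm list had 27001 to 39015 and 36877 to 50766, mostly from *KRT8* and *KRT18*. In it *PAG2* and *ELF3* were called higher, 0 genes lower and 12 not called, where 8.93% of all genes tested were called higher. Past the adjusted p alone, 2 more genes were higher and 1, *TFAP2C*, lower (log2 fold change -0.49, standard error 0.15, limma adjusted p = 0.0352). The cumulus list, which could mark residual follicle cells, had 516 to 2198 and 1014 to 2214, almost all from *PTGS2*. Of its genes, *AMH*, *LHCGR*, *INHBA* and *FOXL2* had group means of 1.06 to 2.60. Higher levels were seen for *FSHR* (23.2 in WT and 24.5 in *SOX2* KO), *STAR* (22.2 and 30.0), *CYP19A1* (9.99 and 11.4) and *NR5A2* (12.4 and 7.13). By limma, DESeq2 or edgeR, 0 of the 12 genes were called (1 at an unadjusted p under 0.05 in each). Whether follicle cells remained was not tested. No gene of the list was at 0 in all 10 embryos. The part of these shifts in the results on transporters was not tested.

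Of the 57 transporter genes, 13 were called higher and 2 lower in *SOX2* KO embryos, and 42 were not called. A call required a limma adjusted p (Benjamini-Hochberg) no higher than 0.05 together with a fold of 2 or more, or of 0.5 or less, on log2(normalized read count + 1), a scale that shrinks the fold of genes near 0. That is 26.3% of the transporter genes, beside 10.1% of all 20056 genes tested. For higher calls the shares were 22.8% and 8.93%, and for lower calls 3.51% and 1.16%. The median log2 fold change was 0.56 over the transporter genes and 0.25 over all genes. Without the threshold on the fold, 6 genes were lower, where 3.2% of all genes were. In 9 of the 57 genes (15.8%) the values of WT and *SOX2* KO embryos did not overlap, against a background of 9.17%. Of these, 7 were higher and 2 lower (background 6.41% and 2.76%). Among the higher, *SLC6A3* (2 reads in nc1 and in ko4) and *SLC6A17* (4 reads in nc5 and in ko4) were parted by the scaling alone. The calls differed by level. Of the 17 transporter genes with a mean of at least 100, limma called 0 higher and 2 lower (4 and 8 at an unadjusted p under 0.05), as did DESeq2 and edgeR, where 2.29% and 1.34% of all genes at that level were called (3.63% together). With a mean of 10 to under 100, 3 of 12 were called higher and 0 lower (background 6.76% and 2.27%, together 9.03%). With a mean under 10, 10 of 28 were called higher and 0 lower (background 14.1% and 0.195%, together 14.3%). A gene of so few reads can pass the minimum through the group where it is high, so this last share is not independent of the difference. Among the called genes this holds for *SLC1A7*, *SLC6A3* and *SLC7A14*, with WT means of 0.118, 0.504 and 0.

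**Figure D1:**
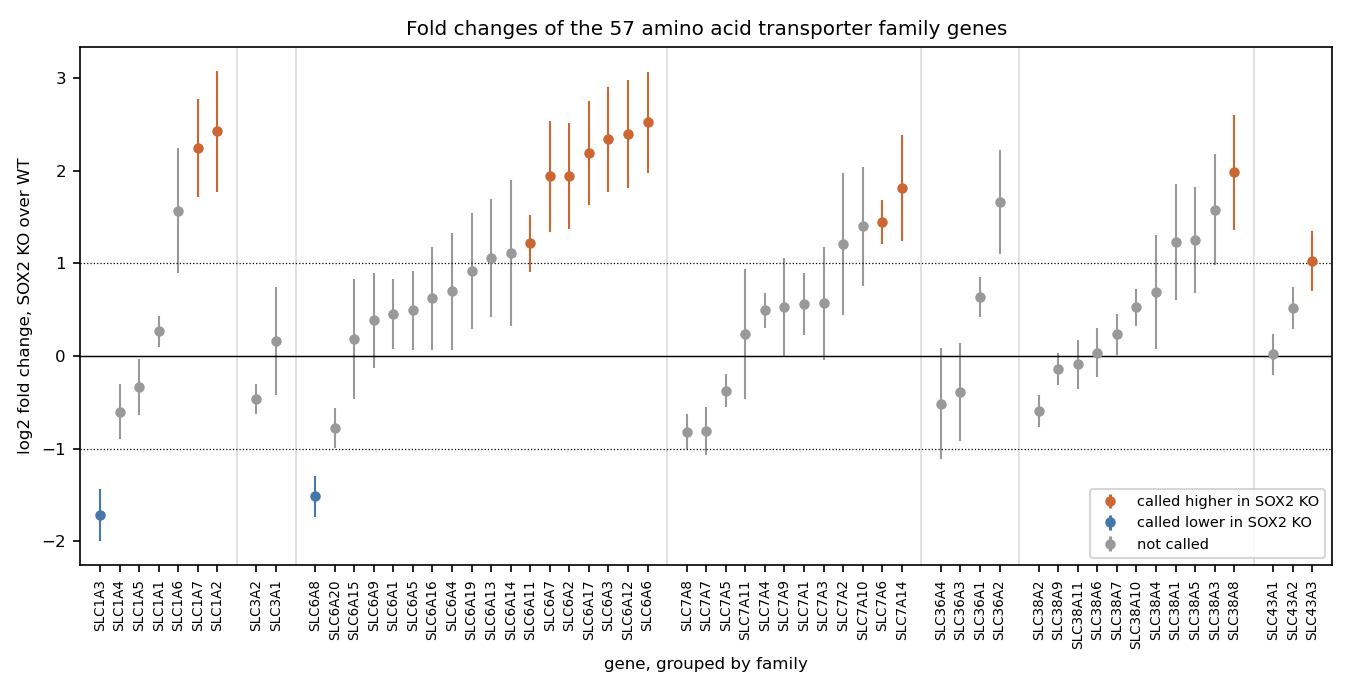
Points give the log2 fold change (SOX2 KO over WT, limma on normalized read count + 1) of each of the 57 transporter genes, ordered within its family, with bars of 1 standard error over 5 WT and 5 SOX2 KO embryos and dotted lines at a fold change of 2 in either direction. SLC1A3 and SLC6A8 are the genes called lower, at -1.72 and -1.52, and the 13 genes called higher lie between 1.03 and 2.53.

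Both genes that fell had many reads. *SLC6A8* encodes the creatine transporter, which brings creatine into cells as an energy buffer. Its normalized read counts were 1269.9, 719, 1863, 803 and 775 for the WT embryos nc1 to nc5, and 295, 453, 413, 361 and 273 for the *SOX2* KO embryos ko1 to ko5. Every WT embryo was above every *SOX2* KO embryo, and the WT embryos nc1 and nc3 stood highest. The means were 1086 ± 487 in WT and 359 ± 76.1 in *SOX2* KO embryos (SD, n = 5 each), so the gene fell to 0.331 of its WT level (log2 fold change -1.52, standard error 0.23, limma adjusted p = 0.000327). *SLC1A3* encodes GLAST, a sodium-dependent carrier of glutamate and aspartate. Its values were 263, 304, 305, 125 and 303 in nc1 to nc5 and 130.3, 67.3, 91.9, 36.1 and 78.4 in ko1 to ko5. The WT embryo nc4 was low, just under the highest *SOX2* KO embryo ko1, and the groups were otherwise apart. The means were 260.1 ± 77.5 in WT and 80.8 ± 34.5 in *SOX2* KO embryos (SD, n = 5 each), a fall to 0.311 of WT (log2 fold change -1.72, standard error 0.29, limma adjusted p = 0.000872). Both genes kept their calls in all 10 fits that left out 1 embryo, with log2 fold changes between -1.64 and -1.30 for *SLC6A8* and between -1.96 and -1.46 for *SLC1A3*. They were also called in every other fit listed in the methods, among them the fit with the *RN18S1* share as a covariate (limma adjusted p = 0.00248 and 0.0109).

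The SLC1 family had 7 genes, of which 2 were called higher and 1 lower (28.6% and 14.3%, beside 8.93% and 1.16% of all genes). *SLC1A1*, which encodes EAAC1, a neuronal and epithelial carrier of glutamate and cysteine, was not called. It had 372, 282, 246, 217 and 228 in WT and 311, 324, 279, 337 and 338 in *SOX2* KO embryos, with overlapping groups (log2 fold change 0.26, standard error 0.16, limma adjusted p = 0.264). Within each embryo, log2 of the ratio of *SLC1A3* to *SLC1A1* was -0.50, 0.11, 0.31, -0.79 and 0.41 in nc1 to nc5 and -1.25, -2.26, -1.60, -3.22 and -2.11 in ko1 to ko5. This ratio does not depend on the scaling between embryos, and because it is not corrected for transcript length only its difference between embryos is read. It was lower in each *SOX2* KO embryo than in each WT embryo, which is a description, since the pair was chosen after the values were seen. The neutral amino acid exchanger *SLC1A4* (ASCT1) had 181, 160.2, 88.5, 136 and 87.9 in WT and 104, 135, 40.7, 54.2 and 121 in *SOX2* KO embryos. Its relative *SLC1A5* (ASCT2), a main route of glutamine into cells, had 132, 166, 169, 170.2 and 126 in WT and 94.6, 321, 96.5, 58.3 and 143 in *SOX2* KO embryos. In both genes the groups overlapped. Neither was called (log2 fold changes -0.60 and -0.34, standard errors 0.30 and 0.30, limma adjusted p = 0.164 and 0.453). *SLC1A5* spread from 58.3 in ko4 to 321 in ko2, and its log2 fold change with 1 embryo left out ran from -0.69 without ko2 (limma adjusted p = 0.05) to -0.080 without ko4 (limma adjusted p = 0.85).

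The SLC6 family had 18 genes, of which 7 were called higher and 1, *SLC6A8*, lower. The branch for GABA, taurine, betaine and creatine had 3 of 6 genes called higher, the monoamine branch 2 of 3 and the amino acid branches 2 of 8, beside 8.93% of all genes. All of these but *SLC6A11* had a mean under 10, a level at which 14.1% of all genes were called higher. *SLC6A11* encodes GAT3, a GABA transporter, and was the SLC6 gene called higher with a mean of at least 10. Its values were 14.5, 17.8, 18.9, 17.9 and 13.6 in WT and 34.5, 50.2, 45.4, 22.2 and 54.2 in *SOX2* KO embryos. All *SOX2* KO embryos lay above all WT embryos, with ko4 nearest to them (log2 fold change 1.22, standard error 0.30, limma adjusted p = 0.0147). The call was lost without ko5, although the log2 fold change of *SLC6A11* was never under 1.103 with 1 embryo left out. *SLC6A20*, which encodes a carrier of proline and other imino acids, had 259, 313, 169, 208 and 208 in WT and 100.2, 108, 156, 213 and 109.5 in *SOX2* KO embryos. Only ko4 reached into the WT range. The gene passed the adjusted p and not the threshold on the fold (log2 fold change -0.78, standard error 0.21, limma adjusted p = 0.0224).

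**Figure D2:**
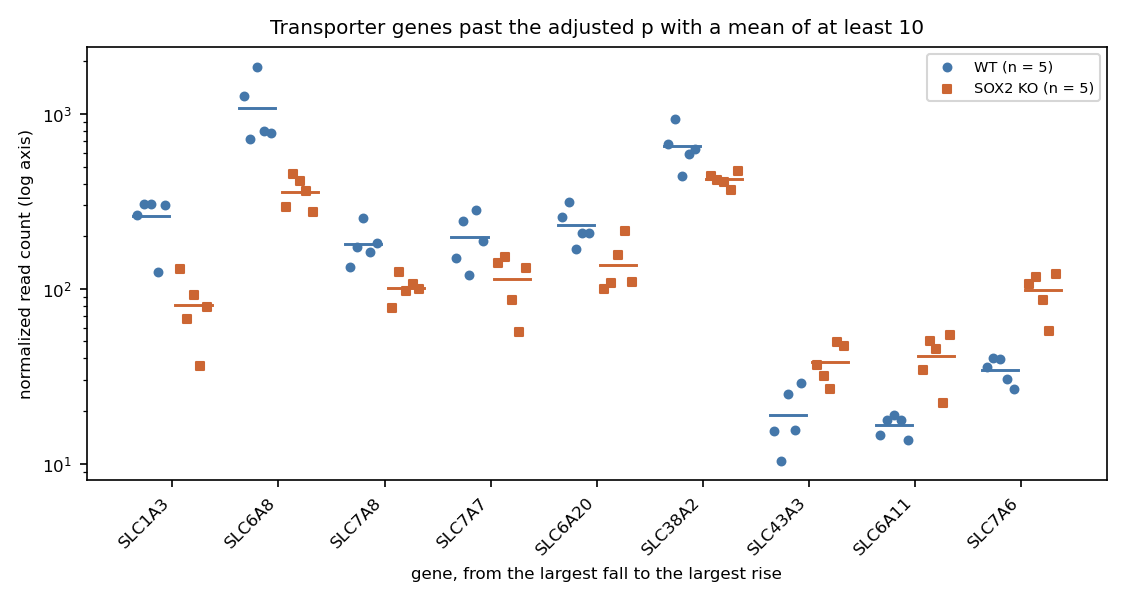
Each point is the normalized read count of 1 embryo on a log axis, for the 9 transporter genes with a mean of at least 10 that passed the limma adjusted p, and bars mark the group means (n = 5 each). SLC6A8, SLC7A8, SLC6A11 and SLC7A6 show no overlap between WT and SOX2 KO embryos.

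The SLC7 family had 12 genes, of which 2 were called higher (16.7%, beside 8.93% of all genes) and 0 lower. The rise with the smallest adjusted p among the 57 genes was that of *SLC7A6*, which encodes y+LAT2, a light chain that exchanges cationic for neutral amino acids. It had 35.9, 40.0, 39.8, 30.3 and 26.6 in nc1 to nc5 and 107, 116, 86.0, 57.5 and 122 in ko1 to ko5. Each *SOX2* KO embryo was above each WT embryo, with ko4 lowest in its group. The means were 34.5 ± 5.94 in WT and 97.8 ± 26.4 in *SOX2* KO embryos (SD, n = 5 each), a rise of 2.83-fold (log2 fold change 1.44, standard error 0.24, limma adjusted p = 0.000841). *SLC7A6* was called in all 10 fits with an embryo left out, and its adjusted p was 0.0507 with the *RN18S1* share as a covariate in limma. Its span overlaps that of *SLC7A6OS* in a gene table of another assembly, a gene looked at after the values were seen, and the strand setting of the counting is not given in the sources used here. *SLC7A6OS* averaged 26.2 in WT and 20.6 in *SOX2* KO embryos (log2 fold change -0.42, standard error 0.38, limma adjusted p = 0.452).

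*SLC7A7*, *SLC7A8*, *SLC7A5*, *SLC7A10* and *SLC7A11* encode other light chains of the same heavy chain CD98, the product of *SLC3A2*. *SLC7A7* (y+LAT1) has the same kind of exchange as *SLC7A6* and had 150.3, 245, 119, 281 and 188 in WT and 140.3, 152, 86.0, 56.7 and 131 in *SOX2* KO embryos. The groups overlapped, with ko4 and ko3 lowest, and the gene passed the adjusted p and not the threshold on the fold (log2 fold change -0.81, standard error 0.26, limma adjusted p = 0.0454). Log2 of the ratio of *SLC7A6* to *SLC7A7* in each embryo was -2.07, -2.61, -1.58, -3.21 and -2.83 in nc1 to nc5 and -0.39, -0.39, 0, 0.02 and -0.10 in ko1 to ko5. The ratio was thus between -0.39 and 0.02 in *SOX2* KO embryos and at most -1.58 in WT, a description of a pair chosen after the values were seen. *SLC7A8* (LAT2), an exchanger of neutral amino acids, had 134, 174, 254, 162 and 183 in WT and 77.9, 125, 96.5, 107 and 99.2 in *SOX2* KO embryos. In *SLC7A8* no embryo overlapped the other group, but the difference was less than 2-fold (log2 fold change -0.82, standard error 0.19, limma adjusted p = 0.00968).

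*SLC3A2* itself had 406, 409, 322, 388 and 349 in WT and 228, 357, 209, 298 and 286 in *SOX2* KO embryos. The embryo ko2 lay within the WT range, and limma did not call the gene (log2 fold change -0.46, standard error 0.16, limma adjusted p = 0.0621). On the recovered reads its adjusted p was 0.047 in edgeR and 0.0564 in DESeq2. *SLC7A5* (LAT1), which imports leucine and other large neutral amino acids, had 694, 575, 823, 558 and 452 in WT and 419.8, 433, 452, 647 and 425 in *SOX2* KO embryos (log2 fold change -0.37, standard error 0.17, limma adjusted p = 0.143). The groups overlapped, and ko4 stood above the other 4 *SOX2* KO embryos. *SLC7A11* (xCT), the cystine-glutamate exchanger, had 16.03, 1.48, 2.98, 25.6 and 9.44 in WT and 14.5, 33.0, 3.49, 1.64 and 16.1 in *SOX2* KO embryos, a wide spread in both groups (log2 fold change 0.24, standard error 0.70, limma adjusted p = 0.846). *SLC7A10* (asc-1), a carrier of small neutral amino acids, had 0, 0, 0.994, 4.66 and 4.13 in WT and 6.68, 2.64, 5.81, 1.64 and 13.8 in *SOX2* KO embryos (log2 fold change 1.402, standard error 0.64, limma adjusted p = 0.138). The CD98 chains thus held 1 gene called higher, and *SLC7A7* and *SLC7A8* were lower by less than the fold threshold. The second heavy chain, *SLC3A1* (rBAT), had 0, 0, 0.994, 3.11 and 1.18 in WT and 1.11, 0, 2.33, 0 and 3.46 in *SOX2* KO embryos, and only nc4 was above the floor, with 4 reads. Its light chain *SLC7A9* had 2 to 15 reads in a WT and 4 to 11 in a *SOX2* KO embryo. Neither was called (limma adjusted p = 0.876 and 0.51).

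**Figure D3:**
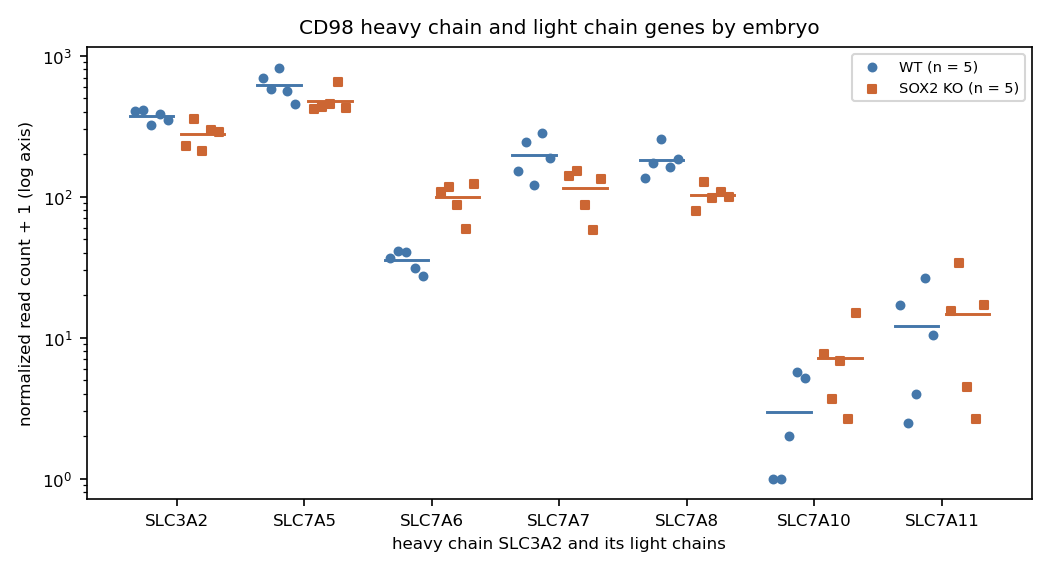
Each point is the normalized read count + 1 of 1 embryo on a log axis for the CD98 heavy chain SLC3A2 and its light chains, with bars at the mean of each group of 5. SLC7A6 is higher in all 5 SOX2 KO embryos, SLC7A8 is lower in all 5, and the groups of the other chains overlap.

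Among the cationic transporters of the family, *SLC7A4*, a relative of the arginine and lysine carriers whose substrate is unsettled, had 749, 559, 614, 643 and 757 in WT and 738, 622, 1073, 1021 and 1383 in *SOX2* KO embryos. Its 3 highest embryos were ko3, ko4 and ko5, while ko1 and ko2 lay within the WT range (log2 fold change 0.49, standard error 0.19, limma adjusted p = 0.0803). *SLC7A1* (CAT-1), the general carrier of arginine and lysine, had 82.0 ± 47.0 in WT and 114 ± 43.4 in *SOX2* KO embryos (SD, n = 5 each, log2 fold change 0.56, standard error 0.34, limma adjusted p = 0.251). *SLC7A14*, a lysosomal member, was listed at 0 in all 5 WT embryos and had 5.57, 1.32, 3.49, 0 and 6.92 in *SOX2* KO embryos, 15 reads in all. The reads in ko1 to ko5 were 5, 1, 3, 0 and 6, so only ko1 and ko5 were above the floor. With every WT embryo set to a floor of 3 reads, its *SOX2* KO mean was at least 1.25-fold higher. On the listed values the limma adjusted p was 0.0406, and 2 of 10 fits with an embryo left out kept the call. *SLC7A14* was picked by its difference and passes the minimum mean through the *SOX2* KO group, so these values are a description.

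SLC36 carriers move small amino acids with protons, out of lysosomes or across the cell membrane. Of the 4 genes, 0 were called by limma, DESeq2 or edgeR, and in each of the 3 tests 2 were higher and 0 lower at an unadjusted p under 0.05. *SLC36A1* (PAT1) had 157, 133, 130.3, 93.2 and 94.4 in WT and 189, 114, 205, 191 and 264 in *SOX2* KO embryos. All but ko2 were above the highest WT embryo, and the adjusted p was just above the threshold (log2 fold change 0.64, standard error 0.21, limma adjusted p = 0.0507). *SLC36A2* (PAT2) had 3.05, 1.48, 4.97, 1.55 and 11.8 in WT and 26.7, 13.2, 6.98, 6.57 and 25.4 in *SOX2* KO embryos (log2 fold change 1.66, standard error 0.56, limma adjusted p = 0.0521), with overlapping groups. The span of *SLC36A1* overlaps in the gene table that of *FAT2*, likewise looked at after the values were seen, which was called higher (log2 fold change 2.21, standard error 0.57, limma adjusted p = 0.0167). With 1 embryo left out, *SLC36A2* was called in 2 of 10 fits and *SLC36A1* in 0.

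The SLC38 family, carriers of glutamine and small neutral amino acids, had 11 genes. Of them 1 was called higher (9.09%, beside 8.93% of all genes) and 0 lower. *SLC38A2* (SNAT2), a carrier that cells raise when amino acids are short, had 674, 936, 442, 589 and 629 in WT and 444, 417, 408, 369 and 473 in *SOX2* KO embryos. The values of *SOX2* KO embryos lay close together, and only nc3 among WT came down to them. *SLC38A2* passed the adjusted p and not the threshold on the fold (log2 fold change -0.59, standard error 0.17, limma adjusted p = 0.029). *SLC38A9*, the lysosomal arginine sensor upstream of mTORC1, had 163, 141, 108, 155 and 152 in WT and 114, 161, 133, 128 and 115 in *SOX2* KO embryos (log2 fold change -0.14, standard error 0.17, limma adjusted p = 0.593). Its groups overlapped widely. *SLC38A10*, a less studied member, had 92.3, 66.7, 104, 67.6 and 95.6 in WT and 114, 104, 144, 98.6 and 156 in *SOX2* KO embryos (log2 fold change 0.53, standard error 0.20, limma adjusted p = 0.0781), and neither was called. The other members with over 10 reads on average, *SLC38A6*, *SLC38A7* and *SLC38A11*, had log2 fold changes between -0.09 and 0.24 and were not called. The gene called higher, *SLC38A8*, is among those with few reads.

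In the SLC43 family of 3 genes, 1 was called higher, where 8.93% of all genes were. *SLC43A3*, which encodes a carrier of purine nucleobases rather than of amino acids, had 15.3, 10.4, 24.9, 15.5 and 28.9 in WT and 36.7, 31.7, 26.7, 49.3 and 47.3 in *SOX2* KO embryos. The lowest *SOX2* KO embryo ko3 was under the highest WT embryo nc5 (log2 fold change 1.03, standard error 0.32, limma adjusted p = 0.0402). The log2 fold change of *SLC43A3* of 1.03 lies at the threshold, and the gene was called neither by DESeq2 (0.99, adjusted p = 0.0312) nor by edgeR (adjusted p = 0.0619). The carriers of large neutral amino acids were not called. *SLC43A1* (LAT3) had 184, 171, 231, 117 and 104 in WT and 159, 99.0, 200.01, 181 and 164 in *SOX2* KO embryos (log2 fold change 0.02, standard error 0.22, limma adjusted p = 0.969), and *SLC43A2* (LAT4) had 96.9, 68.2, 134, 64.5 and 63.2 in WT and 110.2, 106, 126, 162 and 93.4 in *SOX2* KO embryos (log2 fold change 0.52, standard error 0.22, limma adjusted p = 0.119).

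The other 10 genes called higher each had a mean under 10 over the 10 embryos. They were *SLC1A2* (GLT-1) and *SLC1A7* of the glutamate carriers, *SLC6A6* (taurine), *SLC6A12* (betaine and GABA), *SLC6A7* (proline), *SLC6A17* (a vesicular carrier of neutral amino acids), *SLC6A2* (noradrenaline), *SLC6A3* (dopamine), *SLC7A14* and *SLC38A8*. Several of them are known from neurons and glia. Together they had 0 to 5 reads per gene in any WT embryo. *SLC6A6* had 0.763, 1.48, 0.994, 0 and 2.95 in WT and 11.1, 10.6, 8.14, 5.75 and 24.2 in *SOX2* KO embryos without overlap (log2 fold change 2.53, standard error 0.54, limma adjusted p = 0.00641). *SLC6A12* had 0.763, 1.48, 1.99, 0 and 1.18 in WT and 18.9, 3.96, 15.1, 3.29 and 16.1 in *SOX2* KO embryos, again without overlap (log2 fold change 2.40, standard error 0.58, limma adjusted p = 0.012). *SLC1A2* had 0, 4.45, 2.98, 0 and 1.18 in WT and 30.1, 6.60, 6.98, 3.29 and 25.4 in *SOX2* KO embryos, where ko4 fell within the WT range (log2 fold change 2.43, standard error 0.66, limma adjusted p = 0.0209). *SLC6A17* had 9 reads in WT and 55 in *SOX2* KO embryos, and its highest embryos were ko1 at 24.5 and ko5 at 19.6 (log2 fold change 2.19, standard error 0.56, limma adjusted p = 0.0162).

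*SLC1A7* had 1 read over the 5 WT and 21 over the 5 *SOX2* KO embryos, a ratio of 27.3 after scaling (exact 95% interval for counting error 4.38 to 1127). *SLC6A3* had 3 and 31 reads, a ratio of 13.4 (4.18 to 68.6). Their limma adjusted p were 0.00996 and 0.0123. In both genes the normalized read counts did not overlap, but the closest embryos were within the floor of 3 reads. *SLC1A7* had 1 read in nc5 and 2 in ko4 and ko5. *SLC6A3* had 2 reads in nc1 as in ko4, parted by the scaling alone. Both genes were picked by their difference and pass the minimum mean through the *SOX2* KO group, so these values are a description. The intervals pool the reads of 5 embryos per group and leave out the spread between embryos and the copies made by amplification. *SLC6A2*, *SLC6A7* and *SLC38A8* had 8, 9 and 8 reads in WT and 32, 45 and 47 in *SOX2* KO embryos, with overlapping groups (limma adjusted p = 0.0305, 0.0383 and 0.0389). The span of *SLC38A8* overlaps that of *NECAB2*, again looked at after the values were seen and not called (log2 fold change 0.90, standard error 0.53, limma adjusted p = 0.245). The number of fits, of the 10 that left out 1 embryo, in which the call held was 10 for *SLC6A6*, *SLC6A12*, *SLC6A3* and *SLC1A7*, 8 for *SLC6A17*, 6 for *SLC1A2*, 4 for *SLC38A8*, 4 for *SLC6A2* and 3 for *SLC6A7*.

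These rises were not even among the *SOX2* KO embryos. Of the 13 genes called higher, 12 had their lowest *SOX2* KO value in ko4, and the highest value lay in ko1 for 6 and in ko5 for 5. Summed over the 10 genes with few reads, the normalized read counts were 8.39, 14.8, 14.9, 3.11 and 11.8 in nc1 to nc5 and 165, 67.3, 79.1, 25.5 and 134 in ko1 to ko5. A difference between groups is what picked these genes, and the sums are read only for how embryos of one group differ. The embryo ko4 also had the lowest share of *RN18S1* among the *SOX2* KO embryos at 32.5%, while ko1, ko2, ko3 and ko5 had 36.8%, 34.6%, 39.6% and 44.95%. The embryos ko4 and ko2 had the lowest shares and the lowest sums, while ko3 and ko5 had higher shares and lower sums than ko1. The part of the share in the order of these sums was not tested. More than 3 reads were found in ko1 to ko5 for 56, 42, 46, 37 and 52 transporter genes. In WT embryos this number was 30 to 41. The number of all genes detected was 19813, 17987, 19022, 18125 and 19561 in ko1 to ko5. In nc1 to nc5 it was 17103, 15919, 18092, 16232 and 17643. The part of this number in the calls of genes with few reads was not tested. With the *RN18S1* share as a covariate in limma, 0 transporter genes were called higher (10 at an unadjusted p under 0.05) and 2 lower, and 1.1% of all genes were called. Without ko5 the number called higher was 5 (4.72% of all genes called in either direction), without ko1 it was 6 (5.49%), and without ko4 it was 14 (16.6%). Quantile normalization left 4 called higher and 2 lower (background 5.36%), and a minimum mean of 10 left 3 and 2 (6.11%). On recovered reads, DESeq2 and edgeR each called 12 higher and 2 lower (background 10.6% and 9.9%).

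**Figure D4:**
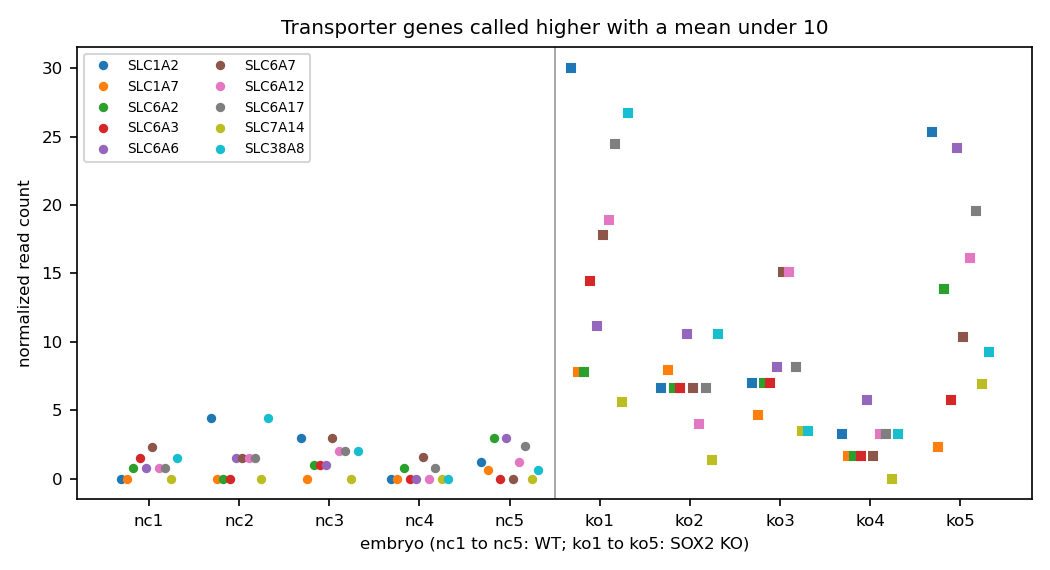
Each point is the normalized read count of 1 gene in 1 embryo, for the 10 transporter genes called higher in SOX2 KO embryos with a mean under 10, shown side by side within an embryo. All WT values are at most 4.45, and their sum in SOX2 KO embryos is highest in ko1 (165) and ko5 (134) and lowest in ko4 (25.5).

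The summed normalized read counts of the families show what these changes amount to in reads. The sums follow the genes with most reads and are not corrected for transcript length. The SLC6 sum was 1594, 1097, 2148, 1086 and 1067 in WT and 661, 729, 739.6, 663 and 657 in *SOX2* KO embryos, without overlap, a ratio of 0.493 between the means. *SLC6A8* made up 65.5% to 86.8% of it in WT, against 41.6% to 62.1% in *SOX2* KO embryos. Without *SLC6A8* the sum was 312 ± 40.4 for WT and 331 ± 44.6 for *SOX2* KO embryos (SD, n = 5 each). That sum holds *SLC6A20* as well as the 7 genes called higher. The SLC7 sum was 1805 ± 93.7 in WT and 1911 ± 288 in *SOX2* KO embryos (SD, n = 5 each), a ratio of 1.06. The ratios of the SLC1, SLC3, SLC36, SLC38 and SLC43 sums were 0.806, 0.737, 1.55, 0.848 and 1.198, each with overlapping groups. Over all 57 genes the sum was 6436, 5977, 6533, 5376 and 5312 in WT and 4715, 4907, 4923, 4943 and 5649 in *SOX2* KO embryos. By the sign of the fold change, 43 of the 57 genes were higher in *SOX2* KO embryos and 14 lower. Among all 20056 genes tested, 12612 were higher and 7444 lower. The mean sums over the 57 genes had a ratio of 0.848 with overlapping groups, and of 0.964 without *SLC6A8*. No test was made on these sums.

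**Figure D5:**
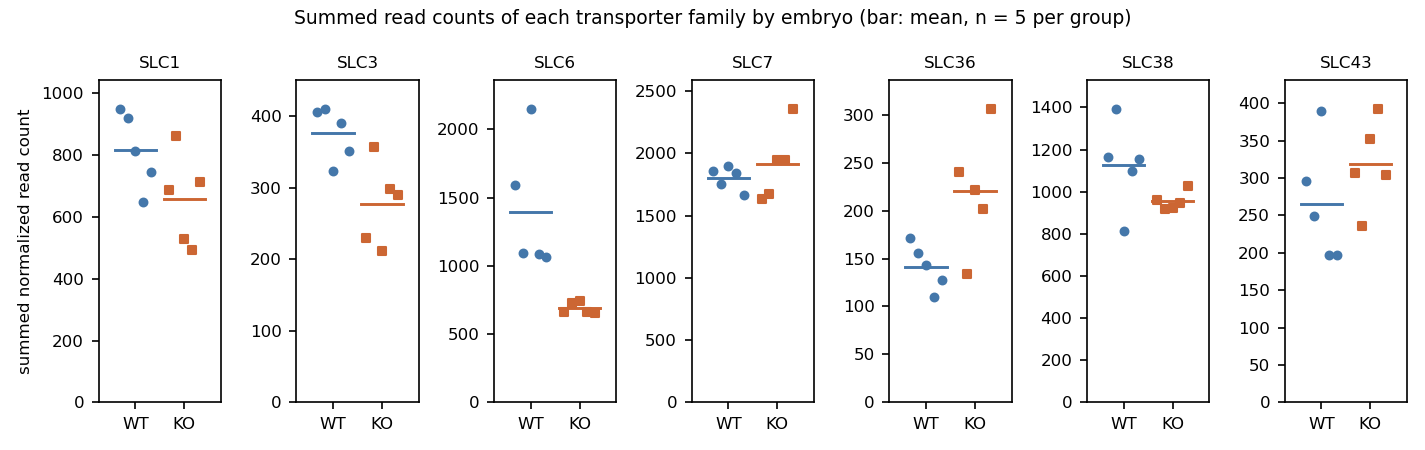
Each point is the summed normalized read count of all genes of a family in 1 embryo, on linear axes that start at 0, with bars at the group means (n = 5 each). The SLC6 sums of WT and SOX2 KO embryos do not overlap, and those of the other families do.

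Genes that handle or sense amino acids inside the cell were counted in the same fit, on 6 lists with 142 genes tested, of which 5 were called higher and 2 lower (4.93%). Of these genes 128 had a mean of at least 10, and 6 of them were called (4.69%), beside 6.86% of all genes at that level. Of the 14 with a mean under 10, 1 was called, beside 14.3% of all such genes. Of 38 genes of mTORC1 amino acid sensing, 0 were called higher and 1 lower, with a median log2 fold change of -0.01. The called gene was *RRAGB*, a Rag GTPase, with 44.97 ± 7.39 in WT and 22.6 ± 13.8 in *SOX2* KO embryos (SD, n = 5 each, log2 fold change -1.16, standard error 0.36, limma adjusted p = 0.0376). Of 23 genes of the ATF4 response to amino acid shortage, 1 was called higher and 1 lower, with a median of -0.03. Each is 4.35% of the list, beside 8.93% and 1.16% of all genes. *ALDH1L2*, a mitochondrial enzyme of folate metabolism, rose from 56.2 ± 27.3 (SD, n = 5) to 149.7 ± 43.5 (SD, n = 5), without overlap (log2 fold change 1.47, standard error 0.26, limma adjusted p = 0.00152). *CHAC1*, which degrades glutathione, fell from 64.2 ± 26.8 to 19.5 ± 15.2 (SD, n = 5 each; log2 fold change -2.06, standard error 0.51, limma adjusted p = 0.0136). Of the 20 cytoplasmic aminoacyl-tRNA synthetases, 0 were called in either direction by limma, with log2 fold changes between -0.51 and 0.20 and a median of -0.22, and 0 were called by DESeq2 or edgeR. At an unadjusted p under 0.05, 5 of the 20 were lower and 0 higher in limma and in DESeq2, and 8 and 0 in edgeR.

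Of 24 genes of arginine and polyamine metabolism, 2 were called higher (8.33%, beside 8.93% of all genes tested) and 0 lower, with a median of -0.11. They were *ASS1*, which makes argininosuccinate from citrulline, and *NOS1*, a nitric oxide synthase. *ASS1* had 13.1 ± 11.9 in WT and 42.9 ± 24.5 in *SOX2* KO embryos (SD, n = 5 each, log2 fold change 1.96, standard error 0.54, limma adjusted p = 0.0223). *NOS1* had 2.98 ± 2.78 in WT and 18.3 ± 17.8 in *SOX2* KO embryos (SD, n = 5 each, log2 fold change 2.01, standard error 0.64, limma adjusted p = 0.043). In both the groups overlapped. Of 16 genes of glutathione synthesis from cystine, 1 was called higher (6.25%, beside the same 8.93%) and 0 lower, with a median of 0.35. *GGT1*, a transpeptidase that splits glutathione outside the cell, rose from 7.45 ± 4.69 to 27.9 ± 10.4 (SD, n = 5 each; log2 fold change 1.997, standard error 0.51, limma adjusted p = 0.0162), without overlap. Of 21 amino acid transporters of other families, 1 was called higher (4.76%, beside the same 8.93%) and 0 lower. The median was 0.59, near that of the 57 genes. The called gene was *SLC17A6*, a vesicular glutamate carrier, named after its values were seen. It averaged 0.15 in WT and 5.11 in *SOX2* KO embryos. *SLC17A6* thus passes the minimum mean through the *SOX2* KO group, so its call is a description.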

How the data were processed

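RNA of single early blastocysts was amplified by Smart-seq2 and sequenced. According to the methods and processing notes, reads were trimmed with Trimmomatic, aligned with HISAT2 to ARS-UCD1.2 and counted per gene with featureCounts. The deposited values, unit signal, are read counts that the authors divided by a DESeq2 size factor per embryo. All 201120 values (100%) came out as whole reads within 0.01 once divided by the step of their embryo, and these reads were used only for the count tests, totals and intervals. The strand setting is not given in the sources used here.

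*SOX2* KO was compared with WT by limma 3.58.1 with a trend on log2(value + 1) over 20056 genes with a mean of at least 1 (R 4.3.3), with Benjamini-Hochberg adjustment over all of them. The scripts were tested on simulated data. Single values per embryo were compared by exact permutation tests, where 5 against 5 allow no p under 0.00794. Embryos are the replicates, named by the columns of the table (nc for WT, ko for *SOX2* KO), and the labels do not say which share a fertilization or injection session. Values of every embryo are given for called transporter genes with a mean of at least 10, the 2 genes with the highest mean of each family, those with a mean of at least 100, and *SLC3A2* with its light chains. Context genes are named if called with a mean of at least 10. The transporter genes, lists and tests were chosen with earlier results of these data known. Alternatives were pseudocounts of 0.1 and 5, equal totals with and without *RN18S1*, scaling to the median log ratio over genes averaging 100 or more, quantile normalization, no minimum mean or one of 10, no threshold on the fold, DESeq2 1.42.0, edgeR 4.0.16, the *RN18S1* share as a covariate, and each embryo left out. All 10 columns were used, and *SLC6A18* was not analysed here. A marker gene is not reported here by name. Gene spans come from a RefSeq gene table of ARS-UCD2.0, in which 57 of 57 symbols matched and which was used for names and overlaps only.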

Additional observations from a re-analysis of the deposited data

Results flagged for a closer look

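A single embryo stood apart from the other 4 of its group, by a gap above Dixon's critical value of 0.71 relative to the range, in 4 of the 92 groups of values examined, where chance gives 4.6. In WT, nc4 had 125 normalized read counts of *SLC1A3*, while the others had 263 to 305. Also in WT, nc5 had 0.59 of *SLC1A7*, which is 1 read, and the others were listed at 0. Among *SOX2* KO embryos, ko4 had 647 of *SLC7A5*, while the others had 419.8 to 452. The sum over all 57 transporter genes was 5649 in ko5, while the others of that group had 4715 to 4943.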

How the results depend on the processing

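Of 757 values of 35 transporter genes under the alternatives, 658 kept direction and side of the thresholds, 72 kept the direction but lost the call, 6 gained it and 21 changed sign, all of the latter in genes that were not called. The number called higher was 13, and it was 4 with quantile normalization, 3 with a mean of at least 10, and 0 with the *RN18S1* share as a covariate. With 1 embryo left out it ran from 5 to 14, with 7 without nc1, 7 without nc4, 6 without ko1 and 5 without ko5. The number called lower was 2 in all fits but that with no threshold on the fold (6), also with 1 embryo left out. Of the 15 calls, DESeq2 and edgeR each kept 14. The 7 called context genes were 4 with quantile normalization, 4 with a mean of at least 10, 1 with the covariate and 21 with no threshold on the fold, and 3 to 10 with 1 embryo left out (4 without nc4, 3 without ko3, 3 without ko5). The median log2 fold change of the transporter genes was 0.26 with quantile normalization, 0.24 with a mean of at least 10, and 0.48 to 0.75 with 1 embryo left out, while that of all genes was 0.25, 0.14 with equal totals, 0.34 with the median log ratio and -0.02 with quantile normalization. Quantile normalization gave -0.71 for *SLC3A1*, -0.17 for *SLC7A9* and -0.24 for *SLC7A11*. The covariate gave -0.60 for *SLC3A1*, -0.077 for *SLC7A11*, 0.017 for *SLC38A9* and -0.29 for *SLC43A1*, which had -0.11 with equal totals and -0.074 in edgeR. With 1 embryo left out, *SLC43A1* ran from -0.12 to 0.18, *SLC3A1* from -0.13 to 0.46 and *SLC7A11* from -0.21 to 0.72. Except for the fits with fewer genes or embryos, the cause was not tested. No paired analysis was possible because the *SOX2* KO columns do not carry the replicate numbers of the labels, so the replicate block was not run. Depth limits the genes with a mean under 10, where up to 3 reads per embryo are the floor.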
